A study of Mus musculus with 36 samples.

Results

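Livers of wild type mice from the crooked tail line (Cd-WT) were compared with livers of wild type mice from the loop tail line (Lp-WT), on 4 arrays of each, which are 8 of the 36 arrays in the series. The Cd line carries the Lrp6 Cd allele and the Lp line the Vangl2 Lp allele; Lrp6 is a receptor for Wnt ligands and Vangl2 organises planar cell polarity. Both groups served as controls of their line, so per the labels neither carried the mutant allele, and what separates them is the line they were bred in. Heterozygotes of the same lines (Cd-Het and Lp-Het, 4 mice each) gave the same comparison on other mice, and B6 (4 mice) and CBA (4 mice) livers gave the level of each gene in 2 further wild type groups. All mice were females of 6 to 8 weeks, fasted for 4 to 5 hours, and each array measured the liver RNA of 1 biological replicate. The labels give the strain of Cd-WT as Lrp6Cd and that of Lp-WT as Vangl2Lp, and give no background strain, litter, time of day or array date for either. Genetic background, breeding stock and any batch that follows the line therefore cannot be told apart from the line itself.

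Mouse lines kept on different backgrounds carry different alleles at many genes, and several gene families of the liver are known for such differences. The class I genes of the major histocompatibility complex, which present peptides to T cells, are among the most polymorphic genes of the mouse. The Cyp2c and Cyp3a cytochromes P450, which oxidise steroids, fatty acids and drugs, and the interferon-inducible p200 and Trim30 families lie in clusters of closely related genes. An array reads each transcript through short probes, so its signal depends on the amount of a transcript and on how well its sequence matches the probes, and in bulk liver fewer cells of a type and less RNA per cell cannot be told apart.

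The values are signal intensities that the authors scaled to the same trimmed mean of 500 on every array. Differences are given as Cd-WT minus Lp-WT on the log2(signal + 23) scale with their standard error, from a limma fit to all 36 arrays, and signals as mean ± SD over 4 arrays. Of 12836 genes tested, 325 (2.53%) had an adjusted p below 0.05 (limma, Benjamini-Hochberg): 139 (1.08%) were higher and 186 (1.45%) were lower in Cd-WT. Of the 325, 217 (1.69% of genes tested) differed by more than 2-fold, 52 by more than 4-fold (21 higher, 31 lower) and 24 by more than 8-fold on this scale. The 4 Cd-WT values and the 4 Lp-WT values did not overlap for 312 of the 325, and for 1813 (14.1%) of all genes tested. Over all 12836 genes, 5782 differences were positive and 7054 negative as deposited. Centring each array on its median, which moved the median difference of all genes to 0.12 from -0.04, gave 326 genes of which 215 (66.0%) were higher, against 42.8% as deposited. Quantile normalization gave 349 genes, of which 45.6% were higher, with a median difference of -0.002. The split by direction therefore changed with median centring and little with quantile normalization. Every named gene kept its sign under both other scalings, whereas centring raised each list's median by 0.16, so that list medians between -0.16 and 0 changed sign. Fits to other sets of arrays gave more calls: 720 without the 2 arrays of doubtful RNA (neither of them Cd-WT or Lp-WT) and 825 with the 8 compared arrays alone.

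Arrays correlated at 0.962 to 0.969 within Cd-WT, at 0.953 to 0.963 within Lp-WT and at 0.945 to 0.955 between them. Some RNA quality ratios moved with the line. The 3' to 5' ratio of the GAPDH control probes was 0.733 to 0.794 on Cd-WT arrays and 0.828 to 0.892 on Lp-WT arrays. That of pyruvate carboxylase was 4.25 to 8.19 and 8.46 to 15.6. The beta-actin ratio overlapped, at 1.77 to 2.24 on Cd-WT arrays and 1.89 to 2.81 on Lp-WT arrays. In the heterozygotes these ratios overlapped, with GAPDH at 0.759 to 0.956 in Cd-Het and 0.755 to 0.930 in Lp-Het. With the GAPDH and pyruvate carboxylase ratios as covariates, 592 genes passed, of which 279 were among the 325. That fit used 34 arrays, without the arrays of doubtful RNA, where 720 genes passed before the ratios were added. The part of these ratios in single differences was not tested.

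The gene that names each line did not pass the test. Lrp6 had signals of 1114, 959, 888 and 763 in Cd-WT and 801, 1608, 1675 and 944 in Lp-WT (log2 difference -0.37 ± 0.34, limma adjusted p = 0.718), and these ranges overlapped. Vangl2 had 292, 255, 177 and 257 in Cd-WT and 43.2, 244, 201 and 274 in Lp-WT (0.51 ± 0.29, limma adjusted p = 0.476). A second probe set of each gene differed by -0.65 for Lrp6 and by -0.14 for Vangl2.

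**Figure D1:**
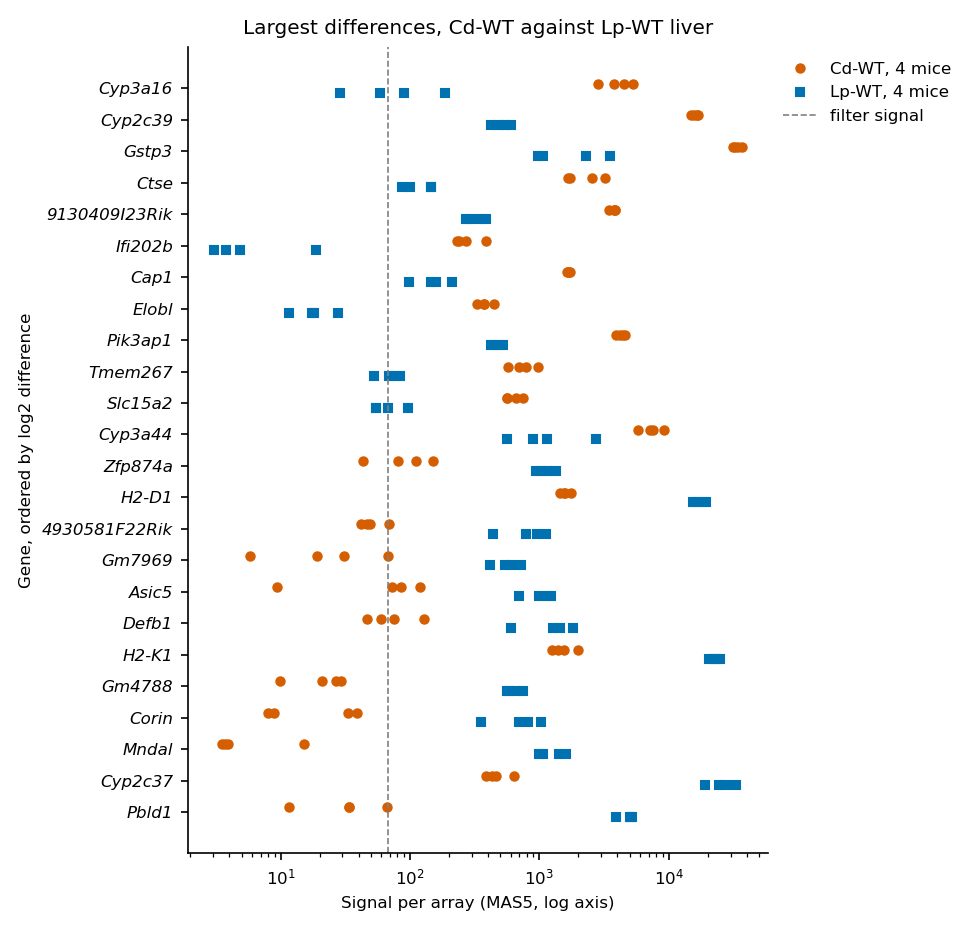
Signal per array (log axis) of the 12 genes with the largest positive and the 12 with the largest negative log2 difference among called genes whose groups do not overlap. Circles are the 4 Cd-WT mice and squares the 4 Lp-WT mice, the dashed line marks a signal of 68.1 (the mean a gene had to pass to be tested), and several genes lie below it in one group only, such as Pbld1 and Mndal in Cd-WT and Ifi202b and Elobl in Lp-WT.

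Many of the largest differences lay between a bright signal in one line and a signal near the low end of the scale in the other. For 42 of the 325 called genes the mean of the lower group lay under a signal of 68.1, in Cd-WT for 33 of them and in Lp-WT for 9. At such levels the log2 difference depends on the offset and understates the ratio of the signals. Pbld1, which encodes a protein with a phenazine biosynthesis-like domain, had signals of 11.5, 33.5, 33.7 and 66.1 in Cd-WT, against 3919, 5054, 5074 and 5179 in Lp-WT. Its difference was the largest of all (-6.42 ± 0.33, limma adjusted p = 7.87e-16), and the highest Cd-WT mouse stayed far below the lowest Lp-WT mouse.

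Signals of the classical class I genes on chromosome 17 were much lower in Cd-WT on the probe sets of highest mean. Of 9 class I and peptide-loading genes tested, 3 (H2-K1, H2-D1 and Tap1) had a lower signal on the probe set tested and passed and 0 rose, though other probe sets of H2-D1 went the opposite way. Over all genes tested, 1.45% were called lower and 1.08% higher. The list's median was -0.12, against -0.04 over all genes tested. H2-K1, a classical class I heavy chain, had signals of 1985, 1402, 1551 and 1248 in Cd-WT and 20557, 23137, 24867 and 22242 in Lp-WT. The difference was -3.87 ± 0.18 (limma adjusted p = 2.34e-17), the smallest p of all genes, and no mouse of either line came near the other line. The 3 other H2-K1 probe sets differed by -2.67, -3.77 and -4.11. All H2-K1 probe sets are of a kind that can share probes with related genes. How far they read other class I genes was not tested.

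H2-D1, the second classical heavy chain, had 1569, 1763, 1440.5 and 1560.1 in Cd-WT against 15819, 18534, 19350.2 and 15312 in Lp-WT with the probe set of the highest mean (-3.42 ± 0.28, limma adjusted p = 5.37e-11). Its other probe sets did not move together. Those that differed downwards did so by -1.40, -3.81 and -5.59, whereas 4 more differed by 0.30, 1.25, 3.11 and 4.73. The probe set with the largest positive difference averaged a signal of 18199 in Cd-WT and 665 in Lp-WT, so Cd-WT was bright on one probe set of the gene and Lp-WT on another. Neither line can be said to have less H2-D1 transcript from these values. Tap1, which pumps peptides into the endoplasmic reticulum for loading, had 249, 277, 289 and 287 in Cd-WT and 491, 1147, 624 and 452 in Lp-WT (-1.14 ± 0.24, limma adjusted p = 0.0031). B2m, the invariant light chain, differed by -0.25 (limma adjusted p = 0.543), and Tap2 by 0.17 (limma adjusted p = 0.872). None of 7 class II genes tested passed (limma; 1 had an unadjusted p below 0.05), with a list median of -0.29; H2-Aa, a class II alpha chain, had the smallest p (-1.16, limma adjusted p = 0.124).

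The p200 family of interferon-inducible DNA-binding proteins, a cluster on chromosome 1, differed in both directions. Mndal had signals of 15.2, 3.52, 3.94 and 3.73 in Cd-WT and 1597, 1416, 984 and 1063 in Lp-WT (-5.43 ± 0.38, limma adjusted p = 1.13e-12), and a second probe set gave -4.88. Ifi202b went the other way, with 238, 231, 384 and 269.5 in Cd-WT and 3.76, 18.8, 3.05 and 4.90 in Lp-WT (3.31 ± 0.45, limma adjusted p = 4.56e-06). Another member, Ifi209, averaged 91.4 in Cd-WT and 218 in Lp-WT (log2 difference -1.07). Members of this family resemble each other, so probes may share signal between them.

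Of 26 general interferon-stimulated genes tested, 2 fell in Cd-WT and 0 rose, against 1.45% lower and 1.08% higher over all genes tested. Of the 26 differences 23 were negative, against 7054 of all 12836, and the median was -0.33. Usp18, a protease that removes Isg15 from proteins and damps interferon signalling, averaged 501 ± 192 in Cd-WT and 910.3 ± 186 in Lp-WT (-0.87 ± 0.24, limma adjusted p = 0.046). Ifit3, an antiviral RNA-response protein, averaged 388 ± 97.4 in Cd-WT and 759.8 ± 259.7 in Lp-WT (-0.90 ± 0.26, limma adjusted p = 0.0496). The groups overlapped by 1 mouse or more for both genes, and both lay near the threshold: neither passed after median centring, where 17 of the 26 differences were negative and the median was -0.17. Irf7, the transcription factor that amplifies interferon responses, differed by -1.10 without passing (limma adjusted p = 0.131). Defb1, a defensin with antibacterial activity, was far lower in Cd-WT, with 75.01, 59.3, 129 and 46.8 against 1832, 1277, 601 and 1449 in Lp-WT (-3.66 ± 0.34, limma adjusted p = 1.88e-09).

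Cytochromes of the Cyp3a family differed in both directions. Cyp3a16, a female-biased steroid-oxidising enzyme, had signals of 2844, 3789.5, 5329.5 and 4514 in Cd-WT and 188, 90.5, 28.6 and 58.4 in Lp-WT (5.33 ± 0.83, limma adjusted p = 4.35e-05), the largest rise of all. Cyp3a44, also female-biased, had 5729, 7129, 7569 and 9185 in Cd-WT and 2748, 892, 1135 and 558 in Lp-WT (2.68 ± 0.69, limma adjusted p = 0.0244). Every Cd-WT mouse exceeded every Lp-WT mouse for both genes, and the Lp-WT mice varied among themselves by several fold. Cyp3a13 fell instead, with 1798, 1404, 1289 and 1688 in Cd-WT and 5209, 8564, 8644 and 6734 in Lp-WT (-2.20 ± 0.25, limma adjusted p = 1.15e-07). Of 11 Cyp2b and Cyp3a genes tested these 3 passed, against 2.53% of all genes tested. The Cyp3a genes resemble each other closely, so how far their probe sets read one another is uncertain.

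Of 16 genes known to be higher in female than in male liver, 2 rose in Cd-WT and 0 fell. Over all genes tested, 1.08% were called higher and 1.45% lower. These 2 were Cyp3a16 and Cyp3a44, already counted above, whose probe sets may read one another. Their differences were positive for 12 and negative for 4. The median was 0.77, against -0.04 over all genes, where 5782 of 12836 differences were positive. Of 13 male-biased genes tested none passed (limma; 4 had an unadjusted p below 0.05), 11 differences were negative and the median was -0.47. Hsd3b5, a male-biased steroid dehydrogenase, had the smallest p of these (-2.95, limma adjusted p = 0.0979). All mice here were female.

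The Cyp2c cluster on chromosome 19 also split. Cyp2c37, an arachidonic acid hydroxylase, had 389, 429, 638 and 464 in Cd-WT and 18943, 27580.1, 32869 and 24293 in Lp-WT (-5.68 ± 0.39, limma adjusted p = 1.13e-12). Cyp2c39 was the reverse, with 16808, 15777, 14719 and 16369.8 in Cd-WT and 606, 484, 421 and 540.05 in Lp-WT (4.90 ± 0.33, limma adjusted p = 5.77e-13). The spread within each line was small beside both gaps. Cyp2c50 averaged 5622 ± 1029 in Cd-WT and 23275 ± 8634 in Lp-WT (-1.99 ± 0.40), and Cyp2c55 averaged 102 ± 42.3 and 357 ± 51.6 (-1.65 ± 0.46). Of 26 Cyp2c, Cyp2d and other cytochromes tested, Cyp2c39 rose and these 3 fell, against 1.08% higher and 1.45% lower over all genes tested. The list's median was -0.14, against -0.04 over all genes. Cross-reading between these related genes is possible here too.

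Gstp3, a glutathione transferase of the pi class, reached 32682, 31408, 36473 and 34265 in Cd-WT, against 3496, 969.97, 1071 and 2292 in Lp-WT (4.29 ± 0.32, limma adjusted p = 8.97e-12). Its Cd-WT signals were among the bright ones of the array, while Lp-WT mice spanned more than a 3-fold range. Gstp1, the neighbouring pi-class gene of the male-biased list, differed by -0.47 (limma adjusted p = 0.317). Of 26 other glutathione transferases and Nrf2 targets tested, 0 passed (limma; 6 had an unadjusted p below 0.05), with a median of -0.02. Among 29 carboxylesterases and aldehyde-metabolising genes only Aldh1b1, a mitochondrial aldehyde dehydrogenase, passed, averaging 2869.9 ± 242 in Cd-WT and 1176 ± 368 in Lp-WT (1.32 ± 0.37, limma adjusted p = 0.0461).

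Of the lists of lipid genes none had more than 2 called members. Pparg, the nuclear receptor that drives fat storage, had signals of 222, 261, 135 and 174 in Cd-WT and 12.4, 19.4, 15.8 and 24.6 in Lp-WT (2.40 ± 0.30, limma adjusted p = 1.01e-06). Every Lp-WT value lay under the level needed to be tested, yet of 15 lipid droplet genes and Pparg targets tested only Pparg itself passed, and their median was 0.02. Hmgcs1, which makes the precursor of mevalonate in cholesterol synthesis, had 8840.4, 14915, 7938 and 13723 in Cd-WT and 5632, 3223, 2551 and 4933 in Lp-WT (1.49 ± 0.34, limma adjusted p = 0.00725). Its 3 other probe sets past the filter gave 1.69, 1.82 and 1.93, but it was the only one of 20 cholesterol synthesis and uptake genes to pass (median 0.15).

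Bdh1, which interconverts the ketone bodies, averaged 16052 ± 611 in Cd-WT and 7740.04 ± 1672 in Lp-WT (1.07 ± 0.27, limma adjusted p = 0.018); a second probe set gave 0.40. It alone passed among 26 fatty acid oxidation genes (17 positive, median 0.09), of which 24 were positive after median centring. Of 19 PPAR alpha targets 1 rose and 1 fell: Acsm3, a medium-chain acyl-CoA synthetase, averaged 2450.1 ± 491 in Cd-WT and 961 ± 212 in Lp-WT (1.33 ± 0.28, limma adjusted p = 0.00297). Cyp4a31, a fatty acid omega-hydroxylase, averaged 270.04 ± 70.5 and 963 ± 369 (-1.69 ± 0.38, limma adjusted p = 0.00669). Tkfc, a kinase that phosphorylates triose sugars from fructose, was the only one of 27 fatty acid and triglyceride synthesis genes to pass, with 995 ± 180.1 in Cd-WT and 2131 ± 499 in Lp-WT (-1.07 ± 0.21, limma adjusted p = 0.00159). None of 23 apolipoprotein and lipoprotein genes passed (limma; 1 had an unadjusted p below 0.05; median -0.05), and none of 19 bile acid genes did (6 unadjusted; median 0.08).

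Nnmt, which methylates nicotinamide with S-adenosylmethionine, had signals of 2263, 803, 774 and 900.2 in Cd-WT and 10180, 8521, 6333 and 7434 in Lp-WT (-2.88 ± 0.42, limma adjusted p = 1.49e-05). Cth, which releases cysteine at the end of transsulfuration, had 7666, 5408, 5736 and 4102 in Cd-WT and 13019, 18809, 20707 and 10969 in Lp-WT (-1.45 ± 0.25, limma adjusted p = 1.76e-04). Both fell without overlap. They were the 2 of 24 methionine cycle and transsulfuration genes to pass (median -0.05), against 2.53% of all genes tested. In the folate cycle, which supplies methyl groups and nucleotides, 0 of 26 genes tested passed (limma; 3 had an unadjusted p below 0.05), and the median was 0.11. Dld, a subunit of the glycine cleavage system, had the smallest p there (0.54, limma adjusted p = 0.205). Prmt1, the main protein arginine methyltransferase, had 585, 553, 497 and 646 in Cd-WT and 195, 147, 129.7 and 216 in Lp-WT (1.62 ± 0.28, limma adjusted p = 2.07e-04), 1 of 19 methyltransferases to pass. Agxt, which clears glyoxylate in peroxisomes, averaged 14235 ± 1763 in Cd-WT and 22913 ± 2498 in Lp-WT (-0.69 ± 0.16, limma adjusted p = 0.011), 1 of 34 amino acid and urea cycle genes.

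Several signalling genes passed. Pik3ap1, an adaptor that brings phosphoinositide 3-kinase to receptors of B cells, had 4395, 4563, 3883 and 4220.5 in Cd-WT and 527, 421, 443 and 492 in Lp-WT (3.12 ± 0.29, limma adjusted p = 1.51e-09), though a dimmer probe set gave 0.61. Pik3r1, the regulatory subunit of that kinase, averaged 1141 ± 83.6 in Cd-WT and 433 ± 101 in Lp-WT (1.38 ± 0.26, limma adjusted p = 8.25e-04), 1 of 28 insulin, growth hormone and IGF genes. Its other probe sets gave -0.10, 0.90 and 1.67. Serpina12, the adipokine vaspin, averaged 854 ± 391 and 3791 ± 2111 (-2.02 ± 0.57, limma adjusted p = 0.047), with overlapping groups. Lrp5, a paralogue of Lrp6, averaged 178 ± 37.7 in Cd-WT and 426 ± 192 in Lp-WT (-1.09 ± 0.30, limma adjusted p = 0.0373), the only one of 32 Wnt and pericentral genes to pass (median -0.06). Celsr1, a cadherin of the planar polarity pathway in which Vangl2 acts, averaged 266 ± 69.5 in Cd-WT and 86.9 ± 49.5 in Lp-WT (1.49 ± 0.34, limma adjusted p = 0.00779), the only one of 20 planar polarity and neural tube genes to pass (median -0.11).

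Other large rises were in genes of varied function. Ctse, the aspartic protease cathepsin E, had 3189.8, 1658, 1735 and 2550.1 in Cd-WT and 146, 99.9, 145 and 87.1 in Lp-WT (3.99 ± 0.77, limma adjusted p = 0.00116), and a second probe set gave 1.04. Cap1, which regulates actin turnover, had 1719, 1660.3, 1684 and 1639.9 in Cd-WT and 209.7, 158, 145 and 98.2 in Lp-WT (3.31 ± 0.26, limma adjusted p = 1.76e-11), and a second probe set gave 4.28. The Cd-WT values of Cap1 were nearly identical in all 4 mice. Slc15a2, a transporter of small peptides, ranged over 561 to 743 in Cd-WT and 54.4 to 97.1 in Lp-WT (2.85 ± 0.48), while a second probe set gave 0.11. Tmem267, a membrane protein, ranged over 574 to 982 in Cd-WT and 52.3 to 83.02 in Lp-WT (3.05 ± 0.31). Elobl, related to elongin B, ranged over 332 to 448 and 11.6 to 27.6 (3.28 ± 0.34), and 9130409I23Rik over 3458 to 3839.9 and 269 to 384 (3.45 ± 0.42).

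Among the other large falls, Corin, the protease that activates atrial natriuretic peptide, had 7.93, 8.93, 38.99 and 33.3 in Cd-WT and 354, 700.3, 1022 and 822 in Lp-WT (-4.02 ± 0.43, limma adjusted p = 3.01e-08). Asic5, an ion channel opened by bile acids, had 84.9, 119.7, 9.32 and 72.04 in Cd-WT and 1176, 696, 984 and 1235 in Lp-WT (-3.62 ± 0.38, limma adjusted p = 2.89e-08). In both genes the Cd-WT mice were dim and the Lp-WT mice clearly above them. Gm4788 ranged over 9.94 to 29.3 in Cd-WT and 563 to 741 in Lp-WT (-3.90 ± 0.25), Gm7969 over 5.84 to 67.6 and 415 to 724 (-3.57 ± 0.26), 4930581F22Rik over 41.6 to 69.2 and 437 to 1116 (-3.44 ± 0.24). Zfp874a, a zinc finger gene, ranged over 43.5 to 150.4 in Cd-WT and 949 to 1342 in Lp-WT (-3.34 ± 0.26).

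Of 42 oxidative phosphorylation subunits 1 rose and 1 fell, 28 differences were positive and the median was 0.04; after median centring 40 were positive and the median was 0.20. Ndufv1, a core subunit of complex I, averaged 5057 ± 589.97 in Cd-WT and 10552 ± 1497 in Lp-WT (-1.06 ± 0.18, limma adjusted p = 1.75e-04), but its 2 other probe sets gave -1.67 and -0.05. Ndufa10, an accessory subunit, averaged 19044 ± 1282 and 11637 ± 947 (0.71 ± 0.17, limma adjusted p = 0.0146). Pcna, the DNA polymerase clamp, averaged 3698 ± 450.04 in Cd-WT and 2275 ± 309 in Lp-WT (0.70 ± 0.16, limma adjusted p = 0.00932), 1 of 33 cell cycle genes. The 38 function lists held 794 tested genes, of which 34 passed, against 2.53% of all genes tested; 21 lists had a called member and only 4 had 3 or more. Of the 17 lists with none, those not named elsewhere were the major urinary proteins, sulfotransferases, glucuronosyltransferases, hepatocyte transporters, acute phase proteins, complement and coagulation, glucose metabolism, heme and iron, endoplasmic reticulum stress and ribosomal proteins, with medians between -0.22 and 0.30 as deposited and 0 to 6 members each at an unadjusted p below 0.05 (limma).

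Of 18 outputs of the circadian clock tested, 4 rose in Cd-WT (Dbp, Ciart, Coq10b and Nampt) and 0 fell. Over all genes tested, 1.08% were called higher and 1.45% lower. Of the 18 differences 14 were positive, against 5782 of all 12836, and the median was 0.59. Dbp, a transcription factor driven directly by the clock, had 8878, 10246, 8274 and 6205 in Cd-WT and 3265, 1129, 2385 and 5434 in Lp-WT (1.64 ± 0.35, limma adjusted p = 0.00386), and a second probe set gave 1.58. Ciart, a repressor of the clock, had 318, 289.6, 46.1 and 176 in Cd-WT and 15.1, 15.9, 19.6 and 40.6 in Lp-WT (2.13 ± 0.51, limma adjusted p = 0.0138). Nampt, the limiting enzyme of NAD salvage, had 2008, 2563, 1846 and 1812 in Cd-WT and 914, 1215, 925 and 859.95 in Lp-WT (1.05 ± 0.28, limma adjusted p = 0.0318). Coq10b, a coenzyme Q binding protein, had 2307, 2260.5, 1464 and 753 in Cd-WT and 747, 330.5, 767 and 873 in Lp-WT (1.25 ± 0.30, limma adjusted p = 0.0127). The groups did not overlap for Dbp, Ciart and Nampt, whereas for Coq10b the lowest Cd-WT mouse lay within the Lp-WT range. Leaving out Cd-WT replicate 1 or 2 ended the call for Ciart (limma adjusted p = 0.0838 and 0.0748) and Coq10b (0.0875 and 0.0825), as did leaving out Lp-WT replicate 2 for Coq10b (0.107). Nampt lost its call when any 1 of 6 of the 8 arrays was left out, namely Cd-WT replicate 1, 2 or 3 or Lp-WT replicate 1, 3 or 4 (limma adjusted p = 0.0545 to 0.126).

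None of 13 core clock genes passed (limma; 2 had an unadjusted p below 0.05), with a median of 0.15. Per3, a repressor of the core loop, came nearest at 1.07 ± 0.31 (limma adjusted p = 0.0509), with 597, 623, 314 and 351 in Cd-WT and 167, 222, 226 and 199 in Lp-WT. Bhlhe40, another repressor, differed by 0.84 (limma adjusted p = 0.0637). Nr1d1 and Arntl, which repress and drive the loop and peak at opposite times of day, differed by -0.29 and -0.18 without passing (limma adjusted p = 0.829 and 0.849).

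The mean signal of each of these 4 outputs was lower in Lp-WT than in Cd-WT, Cd-Het, Lp-Het, B6 and CBA. The other groups of the series were not compared here. Ciart averaged 208 ± 124 in Cd-WT, 446 ± 133 in Cd-Het, 451 ± 309 in Lp-Het, 425 ± 160.3 in B6 and 292 ± 95.4 in CBA (replicates 1 to 3), against 22.8 ± 12.03 in Lp-WT. Within the Lp line, 4 genes (0.0312% of those tested) differed between Lp-Het and Lp-WT. Of them 2 were Ciart (3.17 ± 0.51, limma adjusted p = 0.00346) and Coq10b (1.67 ± 0.30, limma adjusted p = 0.0126). The others, Alas1 (2.52 ± 0.40, limma adjusted p = 0.00346) and Apcs (1.25 ± 0.24, limma adjusted p = 0.0243), are not on the clock lists. This comparison shares the Lp-WT arrays with the main one. Between the heterozygotes none of the 4 outputs passed: Dbp differed by 0.83 ± 0.35, Coq10b by 0.40 ± 0.30, Nampt by 0.44 ± 0.28 and Ciart by 0.17 ± 0.51. For Ciart the difference between the wild type and the heterozygous comparison had an unadjusted p of 0.0108 (limma adjusted p = 0.999).

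**Figure D2:**
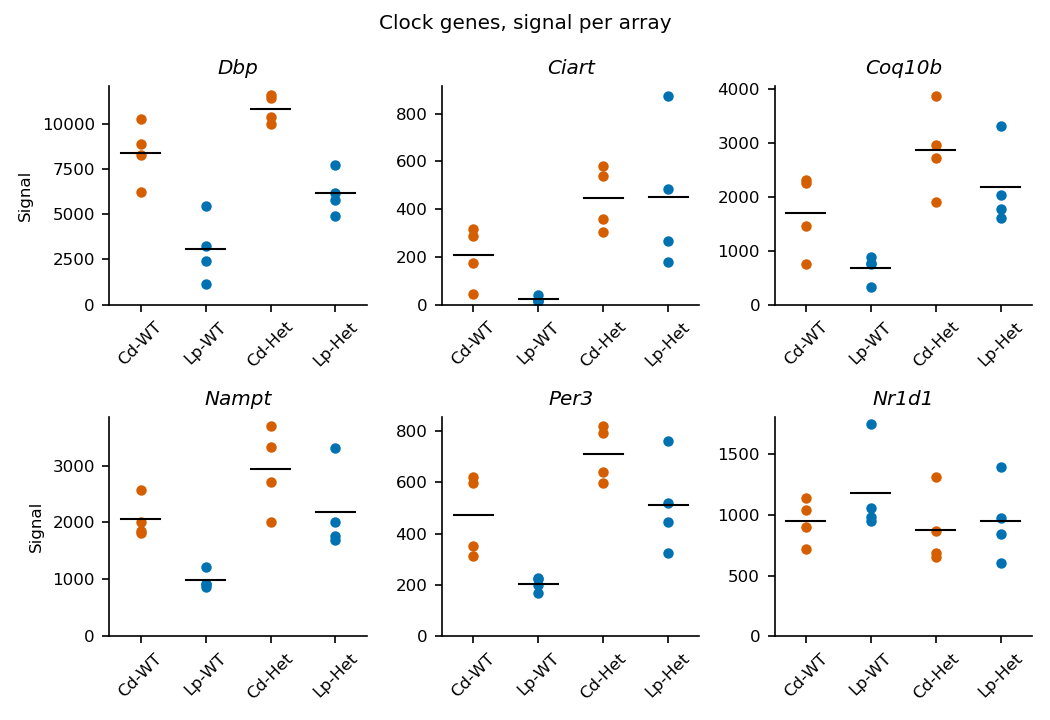
Signal per array of 6 clock genes in Cd-WT, Lp-WT, Cd-Het and Lp-Het (4 mice each, points; bars are means), with each axis starting at 0. Lp-WT has the lowest mean for Dbp, Ciart, Coq10b, Nampt and Per3, whereas Nr1d1 overlaps in all 4 groups.

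Promoters of the 4 called outputs are shown where they hold the E-box letters CACGTG, the palindromic element that clock activators bind, searched in windows from 250 bases before to 50 after each RefSeq start (GRCm38.p6). The Ciart window (chr3:95882179-95882478, minus strand) holds it 3 times and the Coq10b window (chr1:55052520-55052819, plus strand) holds it 1 time, in capitals below, 5′ to 3′.
Ciart: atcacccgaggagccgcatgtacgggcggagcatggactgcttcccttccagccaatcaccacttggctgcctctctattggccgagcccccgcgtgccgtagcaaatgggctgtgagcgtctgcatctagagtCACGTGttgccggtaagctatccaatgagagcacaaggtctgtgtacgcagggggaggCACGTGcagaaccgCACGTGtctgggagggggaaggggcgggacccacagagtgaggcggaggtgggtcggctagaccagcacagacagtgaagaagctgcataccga
Coq10b: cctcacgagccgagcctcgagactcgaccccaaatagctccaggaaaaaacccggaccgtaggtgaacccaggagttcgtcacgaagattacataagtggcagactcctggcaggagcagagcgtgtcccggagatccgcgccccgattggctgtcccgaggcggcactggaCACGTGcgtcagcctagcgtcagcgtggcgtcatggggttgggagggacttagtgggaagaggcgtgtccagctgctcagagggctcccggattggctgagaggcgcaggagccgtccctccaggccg
The windows of Dbp and Nampt hold none. Of 16 tested clock outputs with a window 4 hold it in at least 1 window, as some genes have several. Of 32851 single windows of all genes 7.15% hold it, a share by window and not by gene. A match describes the letters only.

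The summed signal of the 11 hepatocyte markers tested (of 12) was 315410 to 417240 in Cd-WT and 339250 to 398000 in Lp-WT, and Asgr2, a subunit of the asialoglycoprotein receptor, was the only one to pass (-0.65 ± 0.18, limma adjusted p = 0.0477). The 15 Kupffer cell markers summed to 28504 to 38105 in Cd-WT and 21953 to 28840 in Lp-WT. Of these 14 were positive with a median of 0.29, against 5782 positive differences among all 12836 genes tested. None passed (limma, 1 had an unadjusted p below 0.05), and 14 were positive under both other scalings as well. The part of these markers in other differences was not tested. Among 16 endothelial markers only Lyve1, the hyaluronan receptor of sinusoidal and lymphatic endothelium, passed: it averaged 258 ± 73.7 in Cd-WT and 844 ± 156 in Lp-WT (-1.64 ± 0.39, limma adjusted p = 0.0121). Alas2, the first enzyme of heme synthesis in red cell precursors, averaged 338 ± 58.9 in Cd-WT and 747 ± 88.5 in Lp-WT (-1.10 ± 0.28, limma adjusted p = 0.0215), 1 of 6 erythroid markers tested, whose sum was 1646 to 2128 and 2074 to 2545. In all 13 marker lists the summed ranges of the 2 lines overlapped, and Asgr2, Lyve1 and Alas2 were the only called genes among them.

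The same line difference was measured in the heterozygotes, whose group means came from other mice and arrays than those of the wild types. Both comparisons came from the same fit to all arrays of the series. They shared each gene's variance estimate, the filter and the choice of probe set, so calls made in both are not from independent tests. In Cd-Het minus Lp-Het, 366 of 12836 genes passed (2.85%), with 172 (1.34%) higher and 194 (1.51%) lower in Cd-Het. Of the 325 genes called in the wild types, 319 (98.2%) had the same sign in the heterozygotes, against 66.0% of all genes tested and 65.2% of the genes not called. Of the 325, 198 also passed there, all with the same sign, which is 60.9% of the wild type list and 54.1% of the heterozygote list. For 249 of the 325 the heterozygous groups also did not overlap, on the same side. Of all genes tested, 1562 (12.2%) did not overlap in the heterozygotes, in either direction. All 52 genes above 4-fold kept their sign and 43 of them passed. In the heterozygotes 219 genes (1.71%) passed and differed by more than 2-fold. Taken over both genotypes, with 8 mice a side and sharing the arrays of both comparisons, the line difference called 1025 genes (7.99%).

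**Figure D3:**
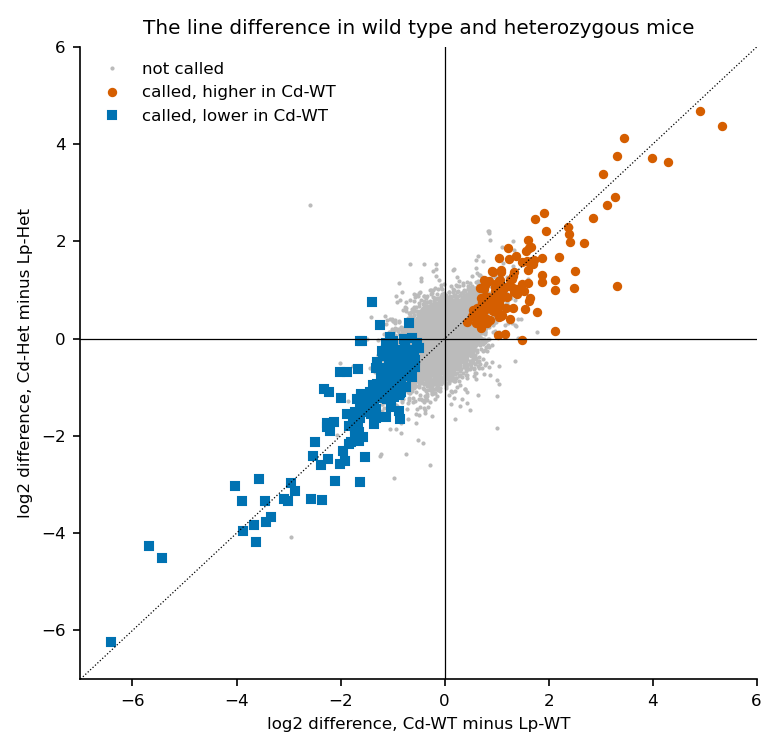
Log2 difference of each of 12836 genes in wild type mice (x axis, Cd-WT minus Lp-WT) and in heterozygotes (y axis, Cd-Het minus Lp-Het), with the 139 genes called higher in Cd-WT as circles, the 186 called lower as squares, the others as dots and equality as a dotted line. Called genes lie along the dotted line in 2 quadrants, and 6 of 325 have the opposite sign.

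Across the 325 called genes the log2 differences in the 2 genotypes correlated at r = 0.948, and across all 12836 at 0.630; genes are not independent replicates. The median size of the called genes was 1.13 in the wild types and 0.95 in the heterozygotes, and 231 of 325 were smaller in the heterozygotes. This follows the list chosen, since 262 of the 366 genes called in the heterozygotes were smaller in the wild types. Several of the largest differences were close in size in both genotypes and others were smaller in the heterozygotes. Pbld1 differed by -6.23 ± 0.33 in the heterozygotes, H2-K1 by -3.96 ± 0.18 and Cyp2c39 by 4.68 ± 0.33. Cyp2c37 differed by -4.26 ± 0.39 there, Mndal by -4.51 ± 0.38, Corin by -3.04 ± 0.43 and Cyp3a16 by 4.37 ± 0.83. Each of these was about 1 log2 unit or more smaller in size than in the wild types. For Cyp2c37 the difference between genotypes was -1.43 ± 0.56 (limma unadjusted p = 0.015, limma adjusted p = 0.999). Tested directly, no gene had a line difference that differed between wild types and heterozygotes (0 of 12836, 0%, limma; 424 genes, 3.3%, at an unadjusted p below 0.05).

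The 6 genes of opposite sign were 1700018B08Rik, Zscan10, Rnf207, Mirg, Cdk19 and Gsk3a, chosen here after their values were seen. Rnf207 differed by -1.39 in the wild types and 0.76 in the heterozygotes, and Cdk19, a kinase of the Mediator complex, by -0.69 and 0.32. None of the 6 passed in the heterozygotes. Ifi202b kept its sign at a smaller size, with 1.08 ± 0.45 in the heterozygotes (limma adjusted p = 0.244), where Cd-Het averaged 248 ± 54.2 and Lp-Het 142 ± 93.7. The Lp-Het mice were split, with 176, 212, 177 and 4.29: 3 lay far above the Lp-WT range of 3.05 to 18.8 and replicate 4 within it.

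B6 and CBA livers gave a point of reference for each gene, with CBA taken from replicates 1 to 3 because replicate 4 had a GAPDH 3' to 5' ratio of 52.5. Of the 325 called genes, 128 (39.4%) had both strains nearer to Lp-WT in mean log2 signal, against 30.8% of all genes tested. For 84 (25.8%, against 20.5%) CBA lay nearer to Cd-WT and B6 nearer to Lp-WT, and for 67 (20.6%, against 22.8%) B6 lay nearer to Cd-WT and CBA nearer to Lp-WT. Both lay nearer to Cd-WT for 46 (14.2%, against 25.9%). Of the 52 genes above 4-fold these counts were 18, 22, 10 and 2. No test was made of these shares, which reuse the arrays that defined the calls.

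Single genes show each of these patterns. H2-K1 averaged 23531 ± 1119 in B6 and 2053 ± 104 in CBA, beside 1546 ± 317 in Cd-WT and 22701 ± 1797 in Lp-WT, so CBA resembled Cd-WT and B6 resembled Lp-WT. Cap1 averaged 237 ± 104 in B6 and 1621 ± 81.1 in CBA, and Defb1 2096 ± 739.99 and 154 ± 51.7, both with the same arrangement as H2-K1. Asic5 was arranged the other way, with 178 ± 52.6 in B6 and 1212 ± 354 in CBA. Pbld1 averaged 7996 ± 1008 in B6 and 6349 ± 821 in CBA, and Gstp3 1261 ± 339.6 and 2037 ± 804, so for these genes Cd-WT and Cd-Het stood alone. Pparg averaged 205 ± 29.8 in B6 and 122 ± 16.2 in CBA, so there the Lp line stood alone, with 43.4 ± 23.8 in Lp-Het. Cyp2c39 was intermediate in CBA, at 6989 ± 909, and low in B6, at 484 ± 138.

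**Figure D4:**
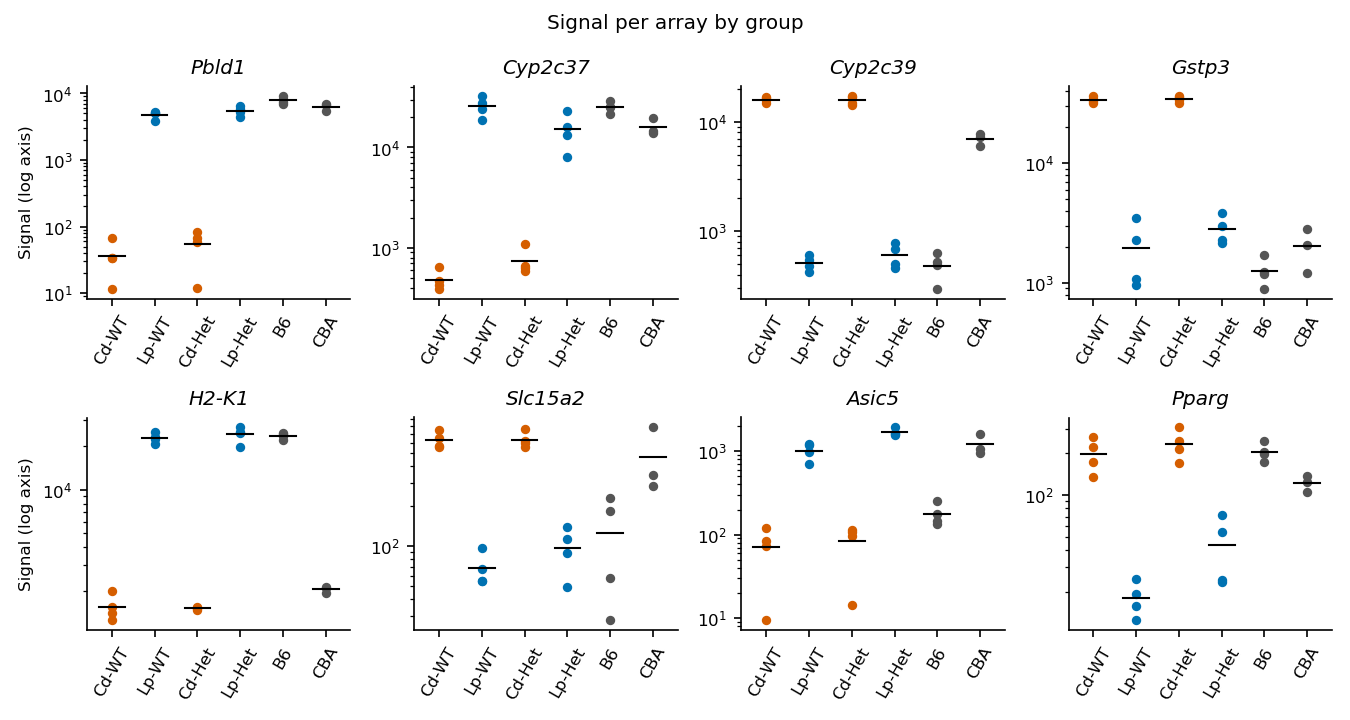
Signal per array (log axis) of 8 genes in Cd-WT, Lp-WT, Cd-Het, Lp-Het, B6 (4 mice each) and CBA (replicates 1 to 3), with points for arrays and bars for means. Heterozygotes lie with the wild type mice of their line, whereas B6 and CBA lie with Cd-WT, with Lp-WT or between them, depending on the gene.

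Other pairs of wild type groups in the fit to all 36 arrays, CBA replicate 4 included, gave these counts. Cd-WT minus B6 gave 512 calls (3.99%), Lp-WT minus B6 gave 274 (2.13%), Cd-WT minus CBA gave 676 (5.27%), Lp-WT minus CBA gave 603 (4.7%) and CBA minus B6 gave 1022 (7.96%). Without CBA replicate 4 and 1 more array of doubtful RNA, an alternative chosen after seeing the data, these counts were 1023, 715, 698, 445 and 813, beside 720 for Cd-WT minus Lp-WT. Their order therefore depends on those arrays, and the pairs share arrays with each other. Within a line, Cd-Het minus Cd-WT gave 0 calls (limma, both with and without these arrays; 270 genes had an unadjusted p below 0.05 in the fit to all arrays).

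Called genes were spread over the genome unevenly. Of 12771 tested genes with a chromosome in RefSeq, 2.54% were called, and the share per chromosome ran from 4.71% (22 of 467) on chromosome 19 and 4.48% (33 of 736) on chromosome 1 to 0.86% (9 of 1051) on chromosome 11 and 0.33% (1 of 304) on chromosome 18, leaving out the Y chromosome with 0 of 3. On the X chromosome it was 0.78% (3 of 386). In the heterozygotes the share was 4.71% on chromosome 19 and 4.62% on chromosome 1, and 1.32% on chromosome 18. No test was made of these shares.

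**Figure D5:**
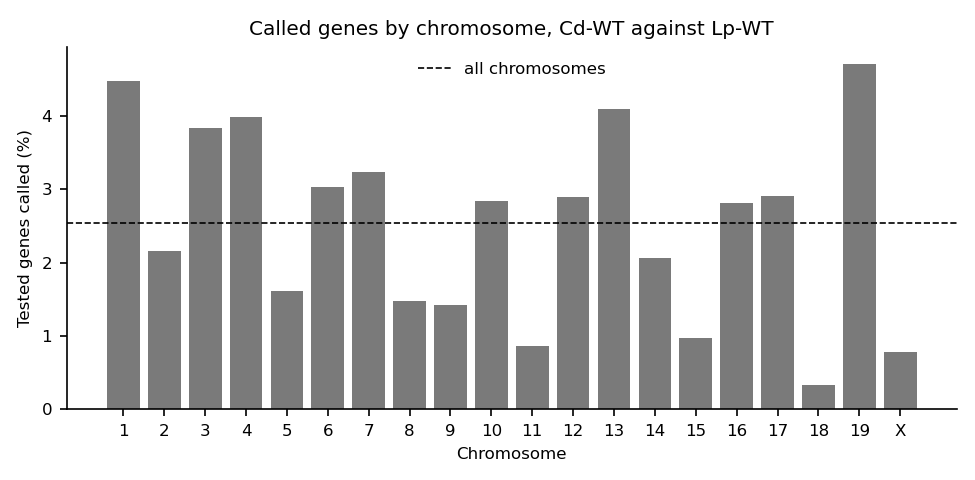
Percent of tested genes called in Cd-WT minus Lp-WT on each chromosome but Y (bars, axis from 0), with the share over all chromosomes, 2.54%, as a dashed line. Chromosomes 19, 1, 13 and 4 stand highest and chromosome 18 lowest.

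Some called genes also lay side by side. Taking 10 consecutive tested genes at a time, stretches with at least 4 called genes formed 10 runs. These runs held 41 of the 325 called genes, and no test was made of them. Besides the Cyp2c and p200 clusters, one run on chromosome 7 held 4 genes of the Trim30 family in direct succession, interferon-inducible ubiquitin ligases and their relatives: Trim34a (-2.11), Trim30a (-1.41) and Trim30d (-2.53) fell and Trim12c (1.08) rose. A run on chromosome 17 held the zinc finger genes Zfp945 (-2.57), Zfp40 (-1.56), Zfp213 (-1.36) and Zscan10 (1.49). Another on chromosome 19 held Pik3ap1 (3.12) beside Exosc1 (-3.01), a subunit of the RNA exosome, Pgam1 (0.71), a glycolytic mutase, and Tm9sf3 (0.52). On chromosome 3, 5 of 6 neighbours were called, among them Anxa5 (-1.67), which binds membrane phospholipids, and Mccc1 (-1.30), an enzyme of leucine breakdown. On chromosome 1 a run held Ndufa10 (0.71) and Agxt (-0.69). Both directions occurred in every run but the one on chromosome 6, where all 4 genes rose.

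How far a gene's probe sets bore each other out could be read for 147 of the 325 called genes, which had another probe set past the filter. All others had the same sign for 94 of them, and for 44 all others had the same sign and were at least 0.5 times as large. For 78 no other probe set reached 0.5 times the size with the same sign. At the threshold itself, Ifit3 (adjusted p = 0.0496) and Plekha8 (0.0497) lay just inside, and Tdp2 and Plpp5 just outside (limma).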

How the data were processed

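Liver RNA of 36 mice was measured on Affymetrix arrays from 3 micrograms of total RNA each, 8 of them Cd-WT or Lp-WT. The deposited values are linear signal intensities that the authors made with MAS5, per the submitters' processing notes (version not given in the sources used here), and each array's 2% trimmed mean was 500, as computed from the values. Detection calls were not used here. Of 45101 probe sets in the table, 64 array controls were left out. The platform's probe table gave 34945 of the others 1 gene symbol, 932 several and 9160 none, and RefSeq (GRCm38.p6) gave current symbols, chromosomes and gene order.

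The intensity plus 23 was taken to log2. Probe sets were kept for testing if their mean over all arrays exceeded the 40th percentile of all values (6.51, a signal of 68.1), and each gene was represented by its brightest probe set on average, so that 12836 of 18193 symbols were tested. limma 3.58.1 in R 4.3.3 (lmFit, eBayes with an intensity trend) fitted 1 mean for each of 9 groups. Tests were two-sided, p-values were adjusted by Benjamini-Hochberg over all genes tested in a comparison, and a gene was called at an adjusted p below 0.05. The labels name 4 biological replicates per group and do not tie replicate numbers across groups; this number of arrays sets the precision.

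Genes were named by this rule: Lrp6 and Vangl2; the 12 largest called differences in each direction whose groups did not overlap; and up to 4 called members with the smallest p of each of 51 gene lists (38 of function, 13 of cell type markers). Genes in runs of neighbours, the genes of opposite sign, those called between Lp-Het and Lp-WT and those at the threshold are named beyond it, after their values were seen. The comparison and the lists were chosen with earlier results of these data known. Lists are described by counts and medians, with no test over a list. The fit was also run on simulated data holding known changes, made from the group means and spreads of the main fit. Its outcome is not given here. Alternatives were 2 other normalizations, 2 offsets, 2 filters, 2 variance models, 3 sets of arrays, 2 choices of probe sets, a replicate block, each array left out in turn, and, added after the data were seen, 2 RNA quality ratios as covariates. Plots were made in matplotlib 3.10.9 (Python 3.11.15).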

Additional observations from a re-analysis of the deposited data

Results flagged for a closer look

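In 7 of 114 groups of 4 arrays (each of 57 named genes in Cd-WT and in Lp-WT), 1 array stood far from the other 3, against about 5% by chance alone. In Cd-WT, Mndal had a signal of 15.2 on replicate 1 (3.52 to 3.94 on the others), which is low in all 4, Nnmt had 2263 on replicate 1 (774 to 900.2) and Ifit3 had 534 on replicate 3 (331 to 347). In Lp-WT, Pbld1 had 3919 on replicate 1 (5054 to 5179), Ifi202b had 18.8 on replicate 2 (3.05 to 4.90), Coq10b had 330.5 on replicate 2 (747 to 873) and Ndufv1 had 12789 on replicate 4 (9678 to 9986). For all but Ifit3 the far array still lay on its own line's side of all arrays of the other line. Without Lp-WT replicate 2 the adjusted p of Coq10b was 0.107 (limma), and without Cd-WT replicate 3 Ifit3 stayed below 0.05.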

How the results depend on the processing

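The count of genes called in Cd-WT minus Lp-WT, 325 as reported, was 1668 with array weights, 825 with the 8 compared arrays alone, 834 with the 16 arrays of both lines alone, 720 without the 2 arrays of doubtful RNA, 662 over all probe sets and 592 with the RNA ratios as covariates. In Cd-Het minus Lp-Het, 366 as reported, these settings gave 1051, 601, 945, 838, 671 and 682. The fits with the RNA ratios also left out the 2 arrays of doubtful RNA, so their counts stand beside 720 and 838. For the difference between both comparisons, 0 as reported, array weights gave 4 and all probe sets gave 1, and the fit to the compared arrays alone could not be run. Leaving out 1 array gave 238 to 280 in the wild types, 242 (without Lp-Het replicate 4) to 363 in the heterozygotes and 0 to 1 for the difference. The cause of these shifts was not tested. Under the other alternatives each count stayed within 1.5 times the reported one. The replicate number as a block gave 309, 350 and 0 calls. Same-numbered Cd-WT and Lp-WT arrays deviated together by r = -0.08 to 0.05, so the numbers are not taken as pairs.

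Of 55 named genes that were called, 36 stayed called under every setting that tested them, 19 lost the call under at least 1, and none changed sign. Leaving out a single array ended the call of 18. The highest adjusted p was 0.276 for Asgr2, 0.217 for Lrp5 and 0.0531 for Hmgcs1 (each without Lp-WT replicate 3), 0.243 for Ifit3, 0.184 for Usp18, 0.107 for Coq10b and 0.0571 for Ndufa10 (without Lp-WT replicate 2), 0.182 for Serpina12, 0.167 for Aldh1b1 and 0.0794 for Bdh1 (without Lp-WT replicate 1), and 0.105 for Cyp3a44, 0.063 for Celsr1 and 0.0528 for Pcna (without Lp-WT replicate 4). It was 0.166 for Cyp2c55 and 0.0838 for Ciart without Cd-WT replicate 1, 0.126 for Nampt and 0.0613 for Agxt without Cd-WT replicate 2, and 0.0957 for Alas2 without Cd-WT replicate 3. With the RNA ratios as covariates, 9 named genes lost the call (Agxt, Aldh1b1, Asgr2, Celsr1, Ciart, Cyp3a44, Ifit3, Nampt and Usp18). Without probe sets of shared or mixed targets, the difference was -1.40 for H2-D1, 1.04 for Ctse and -0.05 for Ndufv1, and of these only Ndufv1 lost its call. H2-K1 had no probe set left in that setting and was not tested there.

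With 4 mice per group and no background strain in the labels, a line difference and a difference of breeding stock or batch cannot be told apart. Signals under 68.1 are near the low end of the scale, and ratios formed from them are uncertain.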
